A study of Mus musculus with 24 samples.

Results

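The genes described here code for the subunits of RNA polymerase II (Pol II), Mediator and TFIID, the machinery that starts transcription at protein-coding genes. They were chosen by symbol: Polr2a to Polr2m, Med followed by a number (with or without l), Cdk8, Ccnc, Tbp, and Taf followed by a number (with or without a, b, c or d). Of the 35742 rows in each deposited table, 67 matched, with 66 symbols. They fall into 13 Pol II genes, 32 Mediator genes and 16 TFIID genes, 61 in all. The other 6 rows carry a matching symbol but code for proteins outside TFIID and are given apart: Taf1a, Taf1b, Taf1c and Taf1d of the Pol I factor SL1, Taf15 of the FET family of RNA-binding proteins, and a second row named Taf9 whose identifier belongs to Ak6 in GENCODE M21. All 67 rows had a mean of at least 1 normalised read in every comparison and were tested.

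The study used V6.5 mouse embryonic stem (mES) cells with a BRD2 degron, a tag that lets auxin trigger destruction of the protein. BRD2 is a BET protein that binds acetylated histones. Cells were kept as mES cells in 2i medium with LIF, or grown without LIF for 2, 3 or 4 days (EBd2, EBd3, EBd4) as floating clusters called embryoid bodies (EB), where differentiation begins. Every group received doxycycline (Dox, 1 µg/ml, given 18 h ahead), so the control groups carry the degron and Dox too. In the IAA groups auxin was added for 24 h as 500 µM indole-3-acetic acid (IAA). Each of the 8 groups (4 stages, Dox alone or Dox with IAA) held 3 libraries of total RNA. The sources used here do not say whether the line is a single clone, what drives the degron components, at what point of EB growth IAA was added, or whether replicate libraries came from different dishes. Spread between replicates may thus be technical, and p-values cover no more than that spread. No group received IAA without the degron.

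Pol II makes messenger RNA. TFIID, built from TBP and its associated factors (TAFs), recognises core promoters and seeds the preinitiation complex. Mediator carries signals from enhancer-bound activators to Pol II through tail, middle and head modules on the MED14 scaffold, and a separable kinase module with CDK8 and cyclin C controls its contact with the polymerase. Embryonic stem cells are known for high occupancy of Mediator at the enhancers of pluripotency genes, and BET proteins and Mediator are found at many of the same enhancers.

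Libraries held 7819522 to 15732767 recovered reads. In EBd4 the IAA libraries (9007143 to 10598075 reads) were all deeper than the Dox libraries (7941180 to 8120480), so depth and IAA cannot be told apart there. Pairs of libraries within a group had a chi-square per degree of freedom of 1.12 to 5.35, above the 1 that counting noise alone gives. EBd2 Dox 3 stood apart from its group (4.49 and 3.77, against 1.29 for the other pair), and so did EBd4 IAA 1 (3.68 and 5.35, against 2.03). Brd2 RNA rose with IAA in every stage (log2 0.87, 0.65, 0.38 and 0.48), which says nothing about the protein. The mitochondrial share of reads was 0.831% to 0.892% in EBd2 Dox and 0.959% to 1.03% in EBd2 IAA, and 1.14% to 1.19% against 1.25% to 1.26% in EBd3, with no overlap. The 10 highest genes held 3.51% to 3.53% of reads in mES Dox and 3.84% to 4.04% in mES IAA, 2.89% to 3.05% against 3.22% to 3.38% in EBd2, and 3.50% to 3.65% against 3.67% to 3.85% in EBd3. Marker lists moved with IAA too. Of 7 pluripotency genes 6 rose and 1 fell in mES, where their summed level was 51451 to 53171 in Dox and 58838 to 60597 in IAA. The 4 primed epiblast genes summed to 1223 to 1352 in mES Dox and 556 to 628 in mES IAA, where Dnmt3b fell (-1.71), Otx2 (0.21) and Pou3f1 (0.35) rose and Fgf5 was at 0. Of these 4 genes 3 rose in EBd2 (summed 23569 to 25260 against 31373 to 33209). The 4 primitive streak genes summed to 1256 to 3083 in the EBd4 Dox libraries and to 111 to 2217 in the EBd4 IAA libraries. Of 7 fibroblast genes, 4 (Col3a1, Dcn, Lum and Postn) were at 0 in all mES libraries, and the list summed to 46.0 to 50.2 in mES Dox and 15.1 to 32.6 in mES IAA. The part of these shifts in the results below was not tested. In such bulk samples fewer cells of a type and less RNA per cell cannot be told apart.

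Changes are log2 fold changes of IAA over Dox ± SE on the log2(value + 1) scale, from limma, and levels are size-factor-normalised read counts per library. A gene "rose" or "fell" where its Benjamini-Hochberg adjusted p over all genes tested was under 0.05. In mES cells 23 of the 61 subunit genes rose and 12 fell, while 17.3% of all tested genes rose and 20.1% fell. The called share was 57.4%, against 37.5% of all tested genes and 57.7% of the tested genes with a mean of at least 100, a level that 58 of the 61 reach as a mean over all 24 libraries. Among those abundant genes 32% rose and 25.7% fell, so both the total and its directions in mES cells were near those of genes of like abundance. In EBd2, 7 rose and 10 fell (13.4% and 16.7% of all genes), a called share of 27.9% against 30.1% of all genes and 45.5% of abundant ones, of which 25.6% rose and 19.9% fell. In EBd3, 8 rose and 5 fell (4.22% and 6.32% of all genes), a share of 21.3% against 10.5% of all genes and 17.7% of abundant ones (8.53% up and 9.14% down). In EBd4, 2 rose and 3 fell (4.69% and 5.57% of all genes), a share of 8.20% against 10.3% of all genes and 18.5% of abundant ones (8.98% up and 9.53% down). The median change of the 61 genes was 0.08, -0.02, 0.05 and -0.03 in the 4 stages, beside -0.01, -0.04, -0.01 and -0.01 over all tested genes. Changes were small: of 70 calls over the 4 stages, 4 exceeded 0.5 in size on the log2 scale and the largest was Med12l in EBd3 (-0.97).

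Over the 4 stages 44 of the 61 genes were called at least once: 25 up only, 18 down only and 1, Taf1, both ways. Among genes with a mean of at least 100, 57.7% were called in mES alone. The shares of such genes called at least once, or in 3 or 4 stages, were not counted. Med15 rose in all 4 stages and Med16 fell in all 4. Polr2a, Taf12 and Taf7 rose in 3 stages, and Polr2m and Med6 fell in 3, in each case mES, EBd2 and EBd3. The other 17 genes did not pass the test in any stage. They are Polr2g, Polr2h and Polr2j of Pol II, Cdk8, Ccnc, Med7, Med12, Med19, Med24, Med27 and Med28 of Mediator, and Tbp, Taf4, Taf8, Taf9, Taf10 and Taf11 of TFIID.

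**Figure D1:**
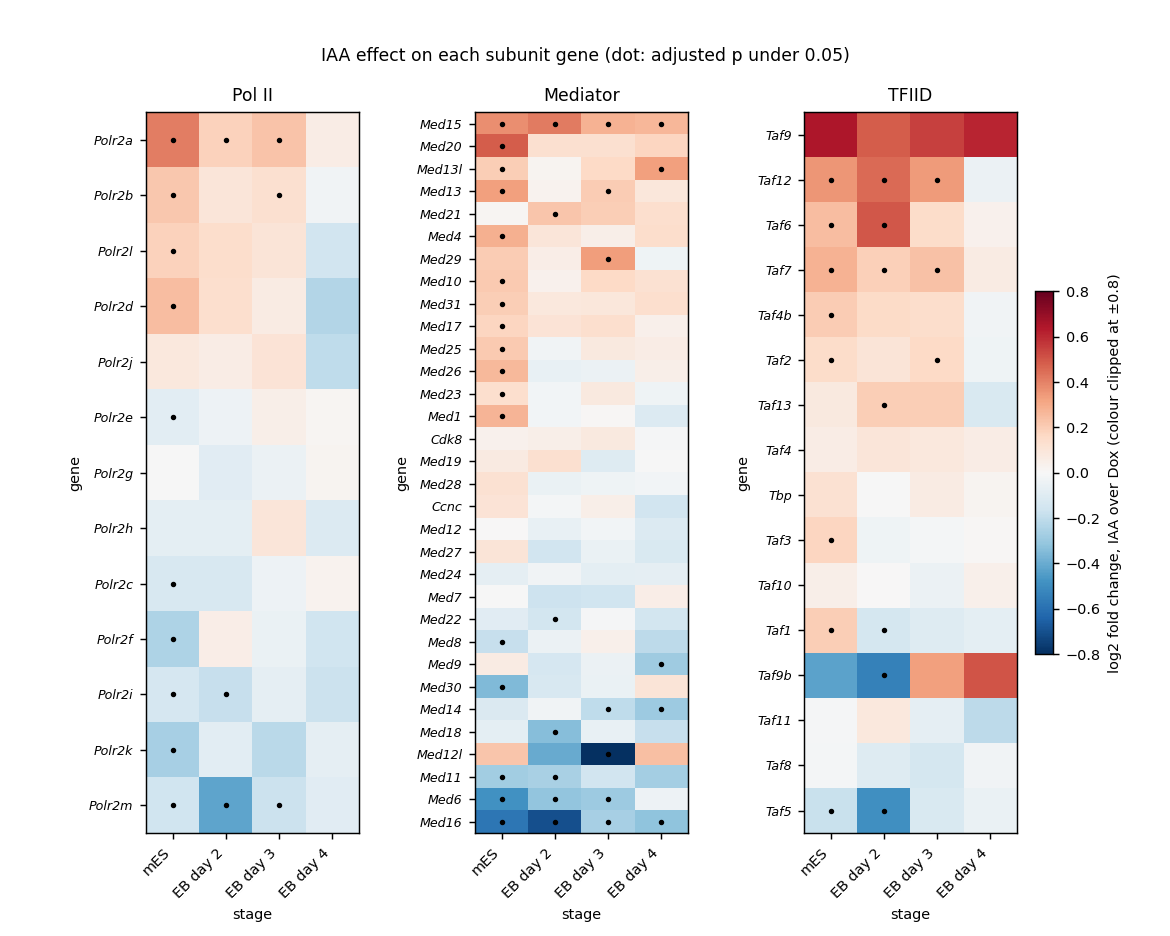
Change of each subunit gene with IAA (colour: log2 fold change of IAA over Dox, clipped at 0.8 either way) in the 4 stages (columns), with genes of each complex in rows ordered by mean change; a dot marks an adjusted p under 0.05. Med15 is dotted red and Med16 dotted blue in all 4 columns, and the EBd4 column has 5 dots in all, each in the Mediator panel.

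**Figure D2:**
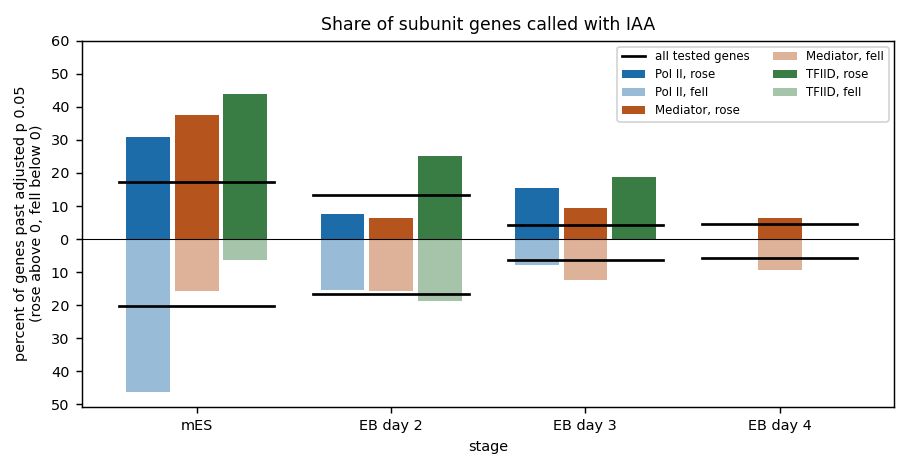
Percent of the genes of each complex that rose (bars above 0) or fell (bars below 0) with IAA in each stage, with the share of all tested genes as black lines. In mES cells 7 of 16 TFIID genes rose and 6 of 13 Pol II genes fell, bars that reach past the lines at 17.3% and 20.1% of all genes. Genes with a mean of at least 100, for which no line is drawn, rose in 32% and fell in 25.7% of cases in mES.

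Promoter sequence was drawn for 4 genes whose RNA carries the main patterns: Polr2a (the catalytic subunit, up with IAA), Med15 and Med16 (the subunits called in every stage, in opposite directions) and Med14 (the scaffold, over 1.4 on the log2 scale above mES in each EB stage). The windows hold the 250 bases before the RefSeq start on GRCm38.p6, on the minus strand of the genome in all 4 cases and written 5′ to 3′ along the gene. Capitals mark matches to motifs searched on either strand. The TATA box was searched as the letters TATAAA. For the GC box the letters searched were GGGCGG, and for the ETS core the search used CCGGAA. The CCAAT box and a palindromic NRF1 core were searched as well. The matches shown had 0 overlaps. The Med15 window is the more upstream of 2 RefSeq starts and lies within the GENCODE gene. The Med14 window runs into its GENCODE gene, which reaches position 12762073, and the Polr2a window overlaps the first few bases of its gene (up to 69758637).
Polr2a, chr11:69758634-69758883: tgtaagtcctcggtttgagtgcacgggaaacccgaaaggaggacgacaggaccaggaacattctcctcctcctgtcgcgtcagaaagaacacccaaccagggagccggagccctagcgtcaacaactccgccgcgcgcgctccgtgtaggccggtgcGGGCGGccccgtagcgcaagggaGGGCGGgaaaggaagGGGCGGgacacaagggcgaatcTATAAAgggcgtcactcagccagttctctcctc
Med15, chr16:17722948-17723197: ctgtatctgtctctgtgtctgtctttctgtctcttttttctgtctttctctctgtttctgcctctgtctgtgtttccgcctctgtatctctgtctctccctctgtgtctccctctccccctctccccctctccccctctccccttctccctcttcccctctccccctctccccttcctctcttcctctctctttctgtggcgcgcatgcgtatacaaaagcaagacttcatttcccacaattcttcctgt
Med16, chr10:79908939-79909188: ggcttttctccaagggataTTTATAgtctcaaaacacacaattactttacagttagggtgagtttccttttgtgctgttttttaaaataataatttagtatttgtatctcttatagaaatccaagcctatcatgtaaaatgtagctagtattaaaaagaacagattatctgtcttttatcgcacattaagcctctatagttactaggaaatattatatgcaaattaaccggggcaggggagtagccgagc
Med14, chrX:12761974-12762223: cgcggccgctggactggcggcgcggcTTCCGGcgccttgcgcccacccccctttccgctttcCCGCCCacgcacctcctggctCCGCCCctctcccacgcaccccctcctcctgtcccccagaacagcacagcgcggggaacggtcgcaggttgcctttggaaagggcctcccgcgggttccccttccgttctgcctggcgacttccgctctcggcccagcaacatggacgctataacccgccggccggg
The Polr2a window has 1 TATAAA with 27 bases between it and the start, and 3 GC boxes with 49, 64 and 87 bases between. The Med15 window has none of the 5 motifs. That of Med16 has 1 TATAAA on the opposite strand 225 bases away, and its GC content is 33.2%, against 62.8% for Polr2a, 52.4% for Med15 and 72.0% for Med14. The Med14 window has 2 GC boxes and 1 ETS core, all on the opposite strand. A window was found for 51 of the 61 genes, and the most upstream one was used for each. The set of all windows keeps every start of a gene, so the shares below come from unlike sets. GGGCGG was present in 72.5% of these and in 32.7% of all 32851 windows of the same length, and CCGGAA was in 31.4% of them and in 3952 of all windows. The shares of the TATA box (13.7% against 12.4%) and the CCAAT box (33.3% against 33.8%) were close to those of all windows. The NRF1 core was found in 0 of the 51 and in 0.782% of all windows. A match is a description of letters, not a binding site.

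Within Pol II the 2 large subunits, Polr2a and Polr2b, rose with IAA in mES cells, and 6 of the 8 smaller ones that passed the test there fell. In mES cells 4 of 13 genes rose (Polr2a, Polr2b, Polr2d and Polr2l) and 6 fell (Polr2f, Polr2m, Polr2c, Polr2k, Polr2e and Polr2i), with a median of -0.08. Of genes with a mean of at least 100, 32% rose and 25.7% fell in mES. Polr2a (ENSMUSG00000005198, chromosome 11, 69733997 to 69758637 on mm10) codes for RPB1, the largest subunit, whose C-terminal repeat is phosphorylated during initiation and elongation. Its normalised counts were 4579, 4453 and 4645 in the Dox libraries and 5861, 6025 and 6268 in the IAA libraries (0.41 ± 0.02, adjusted p = 1.9e-16). Every IAA library was above every Dox library. In EBd2 they were 6773, 6413 and 7046 in the Dox libraries and 7944, 7234 and 7786 in the IAA libraries (0.18 ± 0.05, adjusted p = 0.00427). EBd3 gave 4304, 4772 and 4543 in the Dox libraries and 5631, 5110.4 and 5237 in the IAA libraries (0.23 ± 0.04, adjusted p = 0.000309). The groups did not overlap in these 3 stages. In EBd4 they did, at 3178, 3008 and 2732 in the Dox libraries and 2905, 3213 and 3181 in the IAA libraries (0.06 ± 0.06, adjusted p = 0.573).

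Polr2b, which codes for RPB2, which forms the active-site cleft with RPB1, stood at 2333 ± 60.4 in mES Dox and 2704 ± 48.2 in mES IAA (mean ± SD, n = 3; 0.21 ± 0.03). It also rose in EBd3 (0.13 ± 0.04, adjusted p = 0.0402), a call lost without any of Dox 1, Dox 2, Dox 3, IAA 1 or IAA 3 (adjusted p 0.0683 to 0.144). Polr2d, RPB4 of the polymerase stalk, changed by 0.25 ± 0.05 in mES and Polr2l, a small subunit shared with Pol I and Pol III, by 0.18 ± 0.06. The Polr2l call was lost without Dox 3 (adjusted p = 0.0686). None of these 3 genes was past the threshold in EBd4, where their values were -0.03 ± 0.04, -0.24 ± 0.12 and -0.16 ± 0.09. In EBd4 IAA 1, the library that stood apart, Polr2d read 343 while IAA 2 and IAA 3 read 491 and 519.9.

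The Pol II gene that fell in most stages was Polr2m (ENSMUSG00000032199, chromosome 9, 71478437 to 71485935), which codes for GDOWN1, a protein that binds Pol II and blocks TFIIF until Mediator counters it. It read 2509, 2517 and 2554 in the Dox libraries and 2270.5, 2251 and 2275 in the IAA libraries (-0.16 ± 0.03, adjusted p = 1.6e-05). In EBd2 it read 2532, 2701 and 2653 in the Dox libraries and 2033, 1884 and 1962 in the IAA libraries (-0.42 ± 0.05, adjusted p = 8.02e-07). In EBd3 the values were 2083, 2124 and 2061 in the Dox libraries and 1924, 1779 and 1865 in the IAA libraries (-0.17 ± 0.04, adjusted p = 0.0109). The groups were apart in all 3 stages. The EBd3 call was lost without Dox 2 (adjusted p = 0.0868) or IAA 2 (0.0569). In EBd4 the groups overlapped (-0.09 ± 0.07).

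Polr2f, shared by all 3 nuclear polymerases, fell in mES from 948 ± 24.7 to 799 ± 12.5 (-0.25 ± 0.04) and stood at 0.05 ± 0.06 in EBd2. Polr2c, the RPB3 assembly subunit, fell by 0.13 in mES (SE 0.03), and 18.1% of its exonic bases are shared with Dok4 on the opposite strand. Polr2k, another shared subunit, went from 169.8 ± 20.7 to 141 ± 11.3 in mES with overlapping groups (-0.26 ± 0.09). That call was lost without Dox 1, Dox 3 or IAA 2 (adjusted p 0.0676, 0.169 and 0.114). Polr2i, the RPB9 subunit, fell in EBd2 (-0.19 ± 0.06), but the call was lost when any library other than Dox 3 was left out (adjusted p 0.0515 to 0.0998). Its mES fall was lost without Dox 1, Dox 2 or IAA 3 (0.131 to 0.267), and that of Polr2e without Dox 1, Dox 2, IAA 2 or IAA 3 (0.061 to 0.12). Of the exonic bases of Polr2i, 26.8% are shared with Tbcb on the opposite strand. Of the 5 subunits shared with Pol I and Pol III (Polr2e, Polr2f, Polr2h, Polr2k and Polr2l), 1 rose and 3 fell in mES. Of the other 8 Pol II genes, 3 rose and 3 fell. In EBd4 the count of called Pol II genes was 0 by limma, edgeR and DESeq2, with 1 gene at an unadjusted p under 0.05. The EBd3 count of 3 was 1 without Dox 2. Among genes with a mean of at least 100, limma called 57.7% in mES, 17.7% in EBd3 and 18.5% in EBd4. The mES count of 10 was 6 by DESeq2 and 5 in a joint fit of all 24 libraries.

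Of 32 Mediator genes 12 rose and 5 fell in mES cells, with a median of 0.11, where 32% of genes with a mean of at least 100 rose and 25.7% fell. In EBd2 2 rose and 5 fell, in EBd3 3 rose and 4 fell, and in EBd4 2 rose and 3 fell. The medians were -0.03, 0.00 and -0.02 in turn. Of genes with a mean of at least 100, 25.6% rose and 19.9% fell in EBd2. The shares were 8.53% and 9.14% in EBd3, and 8.98% and 9.53% in EBd4. Without EBd2 Dox 3 the EBd2 counts were 1 up and 6 down, and without EBd4 IAA 1 the EBd4 counts were 2 up and 2 down. The EBd2 total of 7 was 3 without Dox 2 and 4 without IAA 3. The EBd3 total of 7 was 2 without Dox 1, 3 without Dox 2 or IAA 1, and 4 without IAA 2, and the EBd4 total of 5 was 2 without Dox 1 or IAA 2 and 3 without Dox 2. Med15 (ENSMUSG00000012114, chromosome 16, 17651208 to 17732891) codes for a tail subunit that activators such as SREBP bind. In mES it read 745, 771 and 758 in the Dox libraries and 989, 984 and 970.3 in the IAA libraries (0.37 ± 0.04, adjusted p = 6.64e-10). In EBd2 it read 652, 543 and 555 in the Dox libraries and 793, 743 and 789 in the IAA libraries (0.41 ± 0.07, adjusted p = 8.4e-05). No Dox library reached an IAA library in either stage. In EBd3 it read 499, 514 and 529.5 in the Dox libraries and 632, 629.9 and 610.4 in the IAA libraries (0.28 ± 0.06, adjusted p = 0.0039). In EBd4 it read 597, 617 and 599 in the Dox libraries and 711, 759 and 716 in the IAA libraries (0.27 ± 0.06, adjusted p = 0.0111). The groups were apart here too, and the EBd4 call was lost without Dox 1 (adjusted p = 0.0605) or IAA 2 (0.0764).

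Med16 (ENSMUSG00000013833, chromosome 10, 79894708 to 79908923), a neighbouring tail subunit, went the other way. In mES it read 292, 265 and 255 in the Dox libraries and 173, 183 and 186 in the IAA libraries (-0.58 ± 0.07, adjusted p = 2.96e-08). In EBd2 it read 489, 438 and 439.9 in the Dox libraries and 282, 269.7 and 286 in the IAA libraries (-0.70 ± 0.07, adjusted p = 2.09e-07), the largest fall in any stage among the 58 genes with a mean of at least 100 over all libraries. Each IAA library lay below each Dox library. In EBd3 it read 331, 337 and 316 in the Dox libraries and 283, 268 and 269 in the IAA libraries (-0.26 ± 0.08, adjusted p = 0.0329), and in EBd4 323, 316 and 319 in the Dox libraries and 244, 267 and 255 in the IAA libraries (-0.32 ± 0.08, adjusted p = 0.0192). The groups did not overlap there either, yet these 2 calls were the weaker ones. The EBd3 call was lost whichever library was left out (adjusted p 0.0552 for IAA 3 to 0.149 for Dox 2). The EBd4 call was lost without Dox 1, Dox 2, IAA 1 or IAA 2 (0.0507 to 0.0848), and DESeq2 gave 0.145 and 0.0864.

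**Figure D3:**
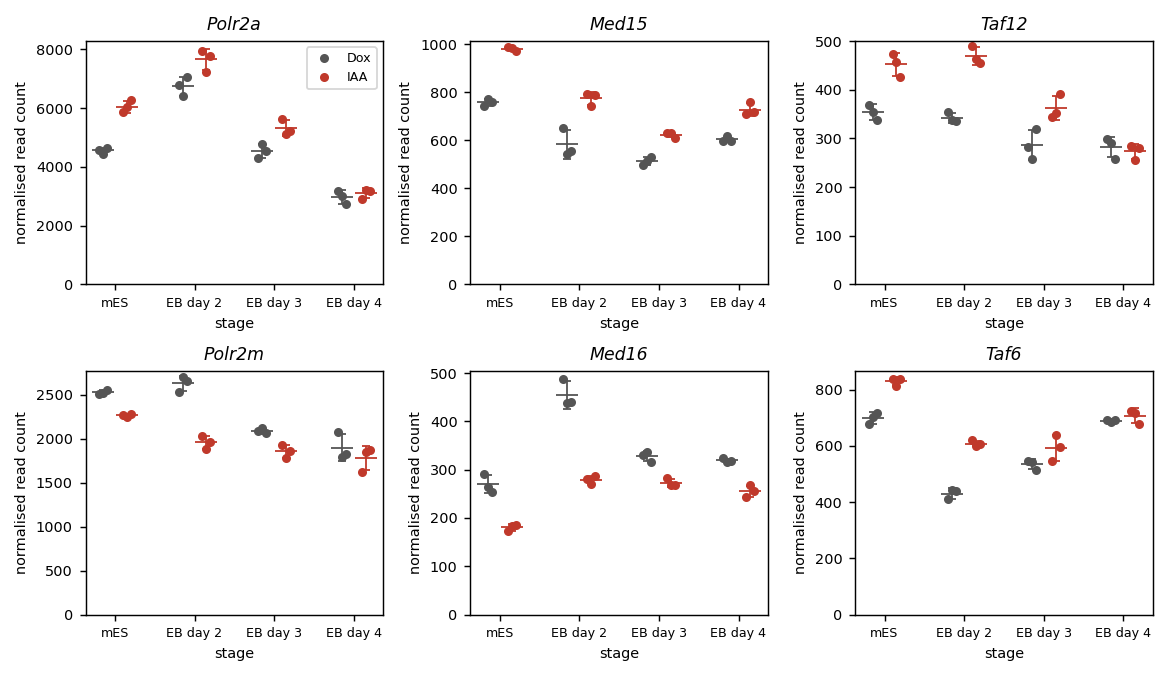
Normalised read counts of 6 subunit genes in every library (points) by stage, with group mean and SD (bars), Dox in grey and IAA in red, axes from 0. Med15 IAA points lie above and Med16 IAA points below all Dox points in each stage. The groups of Polr2a, Polr2m, Taf12 and Taf6 overlap in EBd4, and those of Taf6 also in EBd3.

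In the head module, which contacts Pol II and TBP, 2 of 7 genes rose and 3 fell in mES, and 4 fell in EBd2. Beside this, 32% of genes with a mean of at least 100 rose and 25.7% fell in mES, and 19.9% fell in EBd2. Med6, a head subunit, read 342, 335 and 307 in the Dox libraries and 232, 233 and 236 in the IAA libraries in mES (-0.49 ± 0.06, adjusted p = 8.32e-08). It also fell in EBd2 (-0.31 ± 0.07) and EBd3 (-0.29 ± 0.09), and stood at -0.04 ± 0.08 in EBd4. The EBd3 call was lost without any library but IAA 3 (adjusted p 0.0587 to 0.177). Med20, which pairs with MED18 in the movable jaw of the head, read 284, 273 and 297 in the Dox libraries and 379, 405 and 412 in the IAA libraries in mES (0.48 ± 0.06, adjusted p = 1.77e-08), the largest Mediator rise among those called. It was not past the threshold in EBd2 (0.13 ± 0.07), EBd3 (0.13 ± 0.08) or EBd4 (0.17 ± 0.10). Med18 itself fell in EBd2, from 184 ± 14.7 to 145 ± 6.89 (-0.34 ± 0.09; adjusted p = 0.066 without Dox 2). Med8, the head subunit that links MED18 and MED20 to the rest, fell in mES (-0.18 ± 0.05; 0.0798 without IAA 1). Med11, also of the head, fell in mES (-0.28 ± 0.10; lost without Dox 2, IAA 1 or IAA 3, adjusted p up to 0.115) and EBd2 (-0.26 ± 0.10; lost without any library but Dox 1, 0.0813 to 0.197). Med22, another head gene, fell in EBd2 (-0.15 ± 0.05), a call lost without Dox 1, Dox 2, IAA 1 or IAA 3 (0.0992 to 0.174).

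In the middle module 4 of 8 genes rose in mES (Med1, Med4, Med10 and Med31). The shares among genes with a mean of at least 100 were 32% up and 25.7% down in mES. Med1, the subunit that nuclear receptors bind, read 1001, 982 and 1042 in the Dox libraries and 1196, 1206 and 1242 in the IAA libraries in mES (0.27 ± 0.04, adjusted p = 1.88e-07). Its IAA libraries were all above its Dox libraries there. It stood at -0.02 ± 0.05 in EBd2, 0.01 ± 0.05 in EBd3 and -0.11 ± 0.05 in EBd4. Med21, part of the hinge of the middle module, rose in EBd2 (0.22 ± 0.08), a call lost without Dox 2, Dox 3, IAA 2 or IAA 3 (adjusted p 0.0773 to 0.166). Med9 fell in EBd4, from 513 ± 5.84 to 422 ± 18.9 (-0.28 ± 0.07), a call lost without Dox 1, Dox 2 or IAA 2 (0.0675 to 0.0818). In the tail 3 of 9 genes rose (Med15, Med25 and Med23) and 2 fell (Med16 and Med30) in mES. Med30, a subunit found in metazoans, went from 348 ± 12.1 to 272 ± 11.7 in mES (-0.36 ± 0.06) and stood at 0.10 ± 0.10 in EBd4. Med29 rose in EBd3 (0.33 ± 0.11), a call lost without any library but Dox 3 (0.0839 to 0.202). The 8 mES risers not named first by adjusted p (Med13l, Med4, Med10, Med31, Med17, Med25, Med26 and Med23) ranged from 0.14 to 0.29. Of these, Med10 was lost without IAA 3 (0.0693), Med23 without Dox 2, Dox 3 or IAA 3 (0.0654 to 0.17) and Med31 without Dox 1, Dox 3, IAA 2 or IAA 3 (0.0805 to 0.152).

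Med14, the scaffold, fell in the later EB stages. In EBd3 it read 1837, 1840.4 and 1692 in the Dox libraries and 1586, 1513 and 1565 in the IAA libraries (-0.20 ± 0.05, adjusted p = 0.00519), and in EBd4 1676, 1737 and 1618 in the Dox libraries and 1389, 1337 and 1376 in the IAA libraries (-0.29 ± 0.05, adjusted p = 0.00193). The groups were apart in both. The EBd3 call was lost without Dox 1 (adjusted p = 0.0519) or Dox 2 (0.0643). In mES and EBd2 the values were -0.11 ± 0.05 and -0.03 ± 0.05. The difference of the Med14 effect from that in mES was not past the threshold in any EB stage.

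The kinase module has the paralogue pairs Med12 and Med12l, and Med13 and Med13l; differences within a pair were not tested. Cdk8, the kinase, stood at 0.04 ± 0.04, 0.05 ± 0.05, 0.08 ± 0.06 and -0.01 ± 0.05 in the 4 stages, none past the threshold. Med12, which activates CDK8, stood at 0.01 ± 0.04, -0.06 ± 0.05, -0.02 ± 0.06 and -0.11 ± 0.05. Its paralogue Med12l, a low gene, read 103, 104 and 100.8 in the Dox libraries and 60.6, 36.0 and 64.8 in the IAA libraries in EBd3 (-0.97 ± 0.18, adjusted p = 0.000571). Those groups did not overlap. In EBd2 Med12l read 53.7, 65.2 and 53.8 (Dox) and 52.1, 33.4 and 45.7 (IAA) (-0.41 ± 0.18, adjusted p = 0.089). In mES and EBd4 its values were 0.22 ± 0.10 and 0.24 ± 0.14. Of the exonic bases of Med12l, 17.3% are shared with genes on the opposite strand. Med13, which tethers the kinase module to the core, rose in mES from 820.0 ± 39.9 to 1029 ± 53.7 (0.33 ± 0.04). It rose in EBd3 (0.20 ± 0.05; lost without Dox 1, adjusted p = 0.051, or IAA 1, 0.0618). Its paralogue Med13l rose in mES (0.20 ± 0.03) and in EBd4, where it read 884, 911 and 896 in the Dox libraries and 1153, 1205 and 1029.7 in the IAA libraries (0.33 ± 0.06, adjusted p = 0.00402). EBd4 IAA values of Med13l were all above those of Dox.

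Of 16 TFIID genes 7 rose (Taf7, Taf1, Taf12, Taf6, Taf2, Taf4b and Taf3) and 1 fell (Taf5) in mES, with a median of 0.13, beside the 32% up and 25.7% down of abundant genes. In EBd2 4 rose and 3 fell (median 0.09), and in EBd3 3 rose and 0 fell (median 0.11), with 6 at an unadjusted p under 0.05 in either direction. In EBd4 the called count was 0 by limma, edgeR and DESeq2, with 1 gene at an unadjusted p under 0.05 and 1 called in the joint fit. Abundant genes rose in 25.6% and fell in 19.9% of cases in EBd2. Their shares were 8.53% and 9.14% in EBd3, and 8.98% and 9.53% in EBd4. Without EBd2 Dox 3 the EBd2 counts of TFIID genes were 3 up and 4 down. The EBd2 total of 7 was 4 without Dox 2, and the EBd3 total of 3 was 1 without Dox 1 or Dox 2. Tbp, the TATA-binding protein gene, did not reach the threshold at any stage (0.12 ± 0.05 with adjusted p = 0.0529, then -0.00 ± 0.06, 0.07 ± 0.06 and 0.02 ± 0.07).

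Taf12 (ENSMUSG00000028899, chromosome 4, 132274375 to 132295766), a histone-fold subunit that pairs with TAF4, read 369.6, 354 and 337 in the Dox libraries and 474, 456 and 427 in the IAA libraries in mES (0.35 ± 0.06, adjusted p = 2.93e-06). In EBd2 it read 354, 337 and 336 in the Dox libraries and 489, 464 and 455 in the IAA libraries (0.45 ± 0.07, adjusted p = 2.22e-05), and in EBd3 281, 259 and 319 in the Dox libraries and 345, 353 and 391 in the IAA libraries (0.34 ± 0.09, adjusted p = 0.00978). The IAA values were above the Dox values in these 3 stages and mixed with them in EBd4 (-0.04 ± 0.09). The EBd3 call was lost without Dox 1 (adjusted p = 0.0588) or Dox 2 (0.109). Taf7, which binds TAF1 and restrains its acetyltransferase activity, read 1584, 1626 and 1644 in the Dox libraries and 2039, 1863 and 1995 in the IAA libraries in mES (0.28 ± 0.03, adjusted p = 9.25e-09). It rose by 0.19 ± 0.05 in EBd2 and 0.23 ± 0.05 in EBd3 and stood at 0.06 ± 0.06 in EBd4.

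Taf1 (ENSMUSG00000031314, chromosome X, 101532734 to 101601789), the largest subunit, was the gene called in both directions. In mES it read 1651, 1646 and 1642 in the Dox libraries and 1891, 1858 and 1908 in the IAA libraries (0.20 ± 0.03, adjusted p = 2.24e-06), and in EBd2 1253, 1336 and 1240.2 in the Dox libraries and 1132, 1176 and 1165 in the IAA libraries (-0.14 ± 0.05, adjusted p = 0.0437). IAA libraries were all higher in mES and all lower in EBd2. The EBd2 fall was lost without any library but Dox 3 (adjusted p 0.0674 to 0.213), with TMM scaling (0.109), with edgeR (0.116) and with DESeq2 (0.162). EBd3 and EBd4 gave -0.10 ± 0.05 and -0.08 ± 0.06.

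Taf6, the histone-fold partner of TAF9, rose in mES (0.25 ± 0.04) and in EBd2, where it read 409, 441 and 439.9 in the Dox libraries and 619, 599.9 and 605 in the IAA libraries (0.50 ± 0.06, adjusted p = 3.08e-06), the largest TFIID rise among those called. The EBd2 groups were well apart. Of the Taf6 exonic bases, 26.5% are shared with Ap4m1 on the opposite strand. Taf5, a WD40 subunit that scaffolds the TFIID lobes, read 356, 410.2 and 434 in the Dox libraries and 278, 287 and 286 in the IAA libraries in EBd2 (-0.49 ± 0.08, adjusted p = 5.61e-05) and also fell in mES (-0.18 ± 0.05). Taf2, which touches the initiator element, rose in mES (0.15 ± 0.04) and EBd3 (0.16 ± 0.05), the latter lost without any library but IAA 2 (adjusted p 0.0704 to 0.213). Taf13, partner of TAF11, rose in EBd2 (0.20 ± 0.07), a call lost without any library but Dox 1 (0.0544 to 0.146).

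Taf4 and its paralogue Taf4b, known for its role in the germ line, differed in their mES calls: Taf4 stood at 0.06 ± 0.06 (adjusted p = 0.437) and Taf4b at 0.20 ± 0.06 (0.00607). The Taf4b call was lost without Dox 1 (0.0723) or IAA 3 (0.0588), that of Taf3, a subunit with a PHD finger, without Dox 3 (0.302), IAA 1 (0.0576) or IAA 2 (0.0789), and the difference between the 2 genes was not tested. Taf9 read only 6.34, 9.56 and 11.2 in the Dox libraries and 11.7, 18.5 and 13.5 in the IAA libraries in mES, and its values with IAA, 0.65 ± 0.31, 0.49 ± 0.33, 0.55 ± 0.38 and 0.61 ± 0.37, were not past the threshold. The Taf9 row shares 73.8% of its exonic bases with Ak6 on the same strand, so its counts do not give the level of Taf9. Its paralogue Taf9b fell in EBd2, where it read 52.0, 59.5 and 55.3 in the Dox libraries and 38.0, 39.7 and 35.8 in the IAA libraries (-0.54 ± 0.16, adjusted p = 0.0127; 0.062 without Dox 2), and in the other 3 stages its values were -0.43 ± 0.28, 0.33 ± 0.29 and 0.50 ± 0.29.

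Among the rows outside TFIID, 3 of 6 rose in mES, 2 in EBd2, 1 in EBd3 and 2 in EBd4. Genes with a mean of at least 100 rose in 32%, 25.6%, 8.53% and 8.98% of cases in these stages. Taf1d, a subunit of SL1 that serves Pol I at ribosomal DNA, read 1452, 1464 and 1429 in the Dox libraries and 1966, 1909 and 2009.9 in the IAA libraries in mES (0.44 ± 0.03, adjusted p = 4.62e-14). In EBd2 it read 3452, 3222 and 2254 in the Dox libraries and 4296, 4341 and 4164 in the IAA libraries (0.54 ± 0.09, adjusted p = 0.00015). EBd2 Dox 3 was well below the other Dox libraries there. In EBd4 Taf1d was called with overlapping groups (0.19 ± 0.06), which was lost without any library but IAA 1 (adjusted p 0.081 to 0.21). Taf1c, also of SL1, rose in mES (0.28 ± 0.06), EBd2 (0.21 ± 0.06; 0.0691 without Dox 2 and 0.0609 without IAA 2) and EBd3 (0.25 ± 0.07). The EBd3 call was lost without Dox 1, Dox 3, IAA 1 or IAA 3 (0.0597 to 0.145). Taf1a and Taf1b stood at 0.16 ± 0.08 and -0.10 ± 0.06 in mES. Taf15 rose in mES (0.28 ± 0.03) and EBd4 (0.21 ± 0.04), and the second Taf9 row, Ak6, stood at 0.02 ± 0.06 in mES.

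Whether the effect of IAA differed between stages was tested as the difference of each EB effect from the mES effect, in 1 fit of all 24 libraries. The 3 differences share the mES libraries. For EBd2, 2 genes of the 61 had a higher effect than in mES and 8 a lower one, against 9.73% and 6.61% of all genes. For EBd3 the counts were 1 and 4 (7.15% and 4.52%), and for EBd4 2 and 11 (9.68% and 7.08%). The called shares were 16.4%, 8.20% and 21.3%, beside 16.3%, 11.7% and 16.8% of all genes and 29%, 19.8% and 29% of genes with a mean of at least 100. Of such abundant genes 17.2% were higher and 11.8% lower for EBd2, 11.5% and 8.28% for EBd3, and 15% and 14.1% for EBd4. The EBd3 total of 5 was 3 without mES Dox 1, EBd3 Dox 3 or EBd3 IAA 1. For EBd4 the median difference was -0.10 over the 61 genes and 0.02 over all genes. Taf1 and Med1 had a lower effect in each EB stage than in mES. For Taf1 the differences were -0.34 ± 0.06, adjusted p = 0.000159 in EBd2, -0.30 ± 0.06 in EBd3 and -0.27 ± 0.06 in EBd4. For Med1 they were -0.29 ± 0.07, -0.26 ± 0.07 and -0.38 ± 0.07, adjusted p = 0.000117.

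In EBd4 the effect on 4 Pol II genes was lower than in mES: Polr2a (-0.35 ± 0.07, adjusted p = 0.000582), Polr2b (-0.24 ± 0.05), Polr2l (-0.34 ± 0.10) and Polr2d (-0.48 ± 0.15). These are the 4 Pol II genes that rose in mES. The mES effect is subtracted in each difference, so genes picked for a rise there lean to negative differences. Genes picked for a fall in mES lean to positive ones, so such a match is partly built in. In the joint fit of the 24 libraries the mES rises of Polr2d and Polr2l did not pass (limma adjusted p 0.0816 and 0.0568). The Polr2l and Polr2d differences were lost without EBd4 IAA 1 (adjusted p 0.0678 and 0.0961) or EBd4 Dox 1 (0.0635 and 0.0646), and without mES Dox 3 (0.0554, Polr2l) or mES Dox 2 (0.0533, Polr2d). Among TFIID genes Taf12 (-0.40 ± 0.11) and Taf7 (-0.21 ± 0.07) were also lower in EBd4. The Taf7 difference was lost without mES Dox 1, mES Dox 2, mES IAA 1, mES IAA 3, EBd4 Dox 1 or EBd4 IAA 1 (0.0545 to 0.134). The difference was positive for 4 genes that fell in mES: Med6 (0.45 ± 0.11) and Med30 (0.46 ± 0.12) in EBd4, Polr2f in EBd2 (0.30 ± 0.08) and Med16 in EBd3 (0.31 ± 0.10). The Med16 difference was lost without mES Dox 1, mES IAA 1, EBd3 Dox 3 or EBd3 IAA 1 (0.0753 to 0.118).

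In EBd2 the fall of Polr2m and the fall of Taf5 were deeper than in mES (differences of -0.27 ± 0.07, adjusted p = 0.00702 and -0.31 ± 0.09, adjusted p = 0.0138). The rise of Taf6 was higher (0.25 ± 0.08), a difference lost without mES Dox 3, mES IAA 2, EBd2 Dox 1 or EBd2 IAA 1 (adjusted p 0.0502 to 0.0749). The rise of Polr2a was lower (-0.23 ± 0.07), which was lost without mES Dox 2, mES IAA 3, EBd2 Dox 3 or EBd2 IAA 2 (0.0652 to 0.0939). Med13 (-0.30 ± 0.07) and Med20 (-0.36 ± 0.11) were lower in EBd2 too, Med20 with losses without mES Dox 2, mES IAA 2, mES IAA 3 or EBd2 Dox 1 (0.0533 to 0.0792). The largest difference was that of Med12l in EBd3 (-1.19 ± 0.24, adjusted p = 0.000859). For Med15 none was past the threshold (0.04 ± 0.08, -0.09 ± 0.08 and -0.10 ± 0.08).

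**Figure D4:**
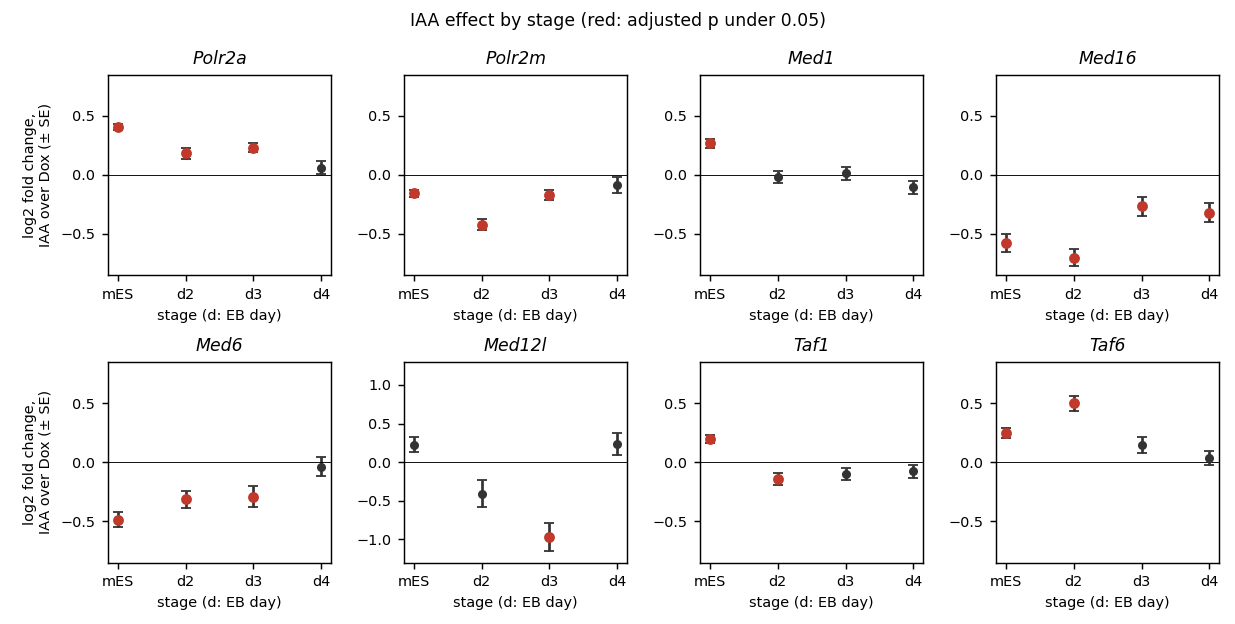
Log2 fold change of IAA over Dox ± SE in each stage for 8 subunit genes, red where the adjusted p was under 0.05; the Med12l panel has its own axis. Polr2a, Med1 and Taf1 are highest in mES, Med12l is lowest in EBd3 at -0.97, and Taf6 is highest in EBd2 at 0.50.

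The Dox groups show the course of the subunit genes in EB culture without IAA, from a fit of the 12 Dox libraries. Read depth was 11147216 to 11890640 in mES Dox, 8353587 to 9371177 in EBd3 Dox and 7941180 to 8120480 in EBd4 Dox. Depth and stage thus cannot be told apart for EBd3 and EBd4. Against mES, 35 of the 61 genes rose and 14 fell in EBd2 (35% and 29.1% of all genes), 23 rose and 21 fell in EBd3 (31.5% and 28.6%), and 12 rose and 28 fell in EBd4 (30.6% and 30.2%). The called shares were 80.3%, 72.1% and 65.6%, beside 64.1%, 60.1% and 60.8% of all genes and 81.6%, 77.2% and 78.7% of genes with a mean of at least 100. Of such abundant genes 40.8% rose and 40.9% fell in EBd2, with 38.3% up and 38.9% down in EBd3 and 39% up and 39.7% down in EBd4. The median change of the 61 genes was 0.24, -0.01 and -0.10. Over all genes it was 0.07, 0.03 and 0.00.

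Med14 was higher than in mES at each EB stage. Its Dox libraries read 503, 500.4 and 529 in mES, 1448, 1499.9 and 1379 on EB day 2, 1837, 1840.4 and 1692 on day 3 and 1676, 1737 and 1618 on day 4, differences from mES of 1.496 (SE 0.05), 1.81 ± 0.05 and 1.71 ± 0.05. No EB library overlapped mES. Med22 peaked in EBd2, at 1125 ± 49.3 against 309.6 ± 7.14 in mES (1.86 ± 0.06), and was still higher than mES in EBd3 (1.13 ± 0.06) and EBd4 (0.59 ± 0.06). Med12 went from 955 ± 17.7 in mES to 2076 ± 45.8 in EBd4 (1.12 ± 0.05), by way of 0.08 ± 0.05 in EBd2 and 0.49 ± 0.05 in EBd3. Med23, a tail subunit, rose by 0.67 ± 0.05 in EBd2 and 0.48 ± 0.05 in EBd4.

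Other Mediator genes were lower than in mES at every EB stage: Med13l (-0.76, -1.05 and -0.77), Med19 (-0.70, -0.70 and -0.72), Med21 (-0.84, -0.67 and -0.64) and Med18 (-0.23, -0.66 and -1.13). Med15 was lower too (-0.38, -0.56 and -0.33) and Med16 higher (0.75, 0.28 and 0.24).

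Polr2e, a shared subunit, fell stage by stage against mES (-0.54 ± 0.04, -0.86 ± 0.04 and -1.03 ± 0.04), from 2518 ± 65.8 in mES to 1236 ± 50.1 in EBd4. Polr2a was higher in EBd2 (0.56 ± 0.05), at -0.01 ± 0.05 in EBd3, and lower in EBd4 (-0.62 ± 0.05). Polr2d rose in EBd2 (0.95 ± 0.08) and EBd3 (0.53 ± 0.08), and Polr2l rose in EBd2 (0.75 ± 0.07). Polr2f and Polr2i fell in EBd3 (-0.42 ± 0.05 and -0.48 ± 0.08) and EBd4 (-0.72 ± 0.05 and -0.70 ± 0.08).

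In TFIID, Taf4 was above mES at each EB stage (0.75 ± 0.06, 0.48 ± 0.06 and 0.32 ± 0.06). Taf3 and Taf4b rose in EBd2 (0.63 ± 0.07 and 0.54 ± 0.08). Taf6 dipped in EBd2 (-0.70 ± 0.06) and EBd3 (-0.38 ± 0.06) and stood at -0.02 ± 0.06 in EBd4. Taf5 (-0.63, -0.53 and -0.52), Taf1 (-0.37, -0.34 and -0.57) and Taf10 (-0.39, -0.53 and -0.49) fell at each EB stage, and Taf7 fell most in EBd4 (-0.58 ± 0.05). Of the Taf10 exonic bases, 45.9% are shared with Ilk on the opposite strand.

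**Figure D5:**
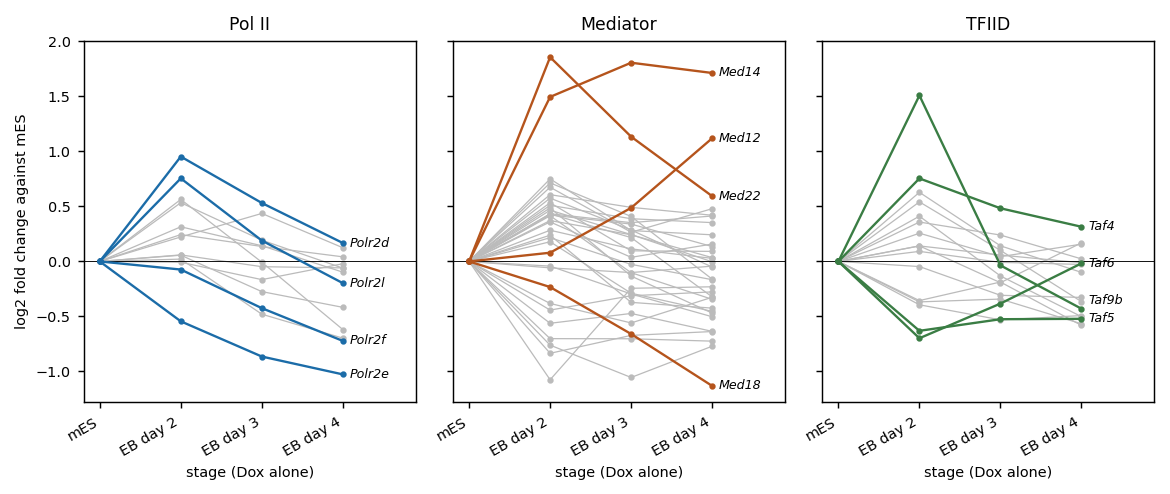
Log2 fold change of each subunit gene in Dox libraries at EB days 2, 3 and 4 against mES (lines), by complex, with named genes in colour. Med14 stays above 1.4 in all EB stages, Med22 peaks at 1.86 on day 2, Med12 reaches 1.12 on day 4, and Polr2e ends at -1.03.

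Per kilobase of exon, averaged over the 4 Dox groups, Polr2m stood highest of the 61 genes. It gave 943 normalised reads per kb, Polr2a 666, Polr2e 642 and Polr2d 634, and the lowest Pol II gene, Polr2l, gave 240.0. In Mediator the levels ran from 7.57 (Med12l) to 332 (Med9), with Med15 at 52.8 and Med16 at 73.6. In TFIID they ran from 4.42 (Taf9) and 8.55 (Taf9b) to 408 (Taf7), with Tbp at 47.3. The Taf9 row shares 73.8% of its exonic bases with Ak6 on the same strand, so its value does not give the level of Taf9. Exonic lengths are unions over all transcripts, which lowers the per-kb value of genes with many annotated exons.

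Other parts of the transcription machinery were counted in the same way. As a yardstick, abundant genes (averaging 100 or more) rose in 32%, 25.6%, 8.53% and 8.98% of cases in mES, EBd2, EBd3 and EBd4. They fell in 25.7%, 19.9%, 9.14% and 9.53%. Whether the lists below depart from these shares was not tested. Of 17 subunits of the general factors TFIIA, TFIIB, TFIIE, TFIIF and TFIIH, 7 rose and 4 fell in mES, 3 rose and 2 fell in EBd2, 2 rose and 1 fell in EBd3, and 1 rose and 3 fell in EBd4. Gtf2f1 of TFIIF rose in mES (0.25 ± 0.03) and EBd2 (0.32 ± 0.05), and Mnat1 of the TFIIH kinase fell in mES (-0.28 ± 0.05), EBd2 (-0.44 ± 0.07) and EBd3 (-0.24 ± 0.07). Of 15 SAGA genes, whose complex shares some TAFs with TFIID, 7 rose and 4 fell in mES, 4 rose and 3 fell in EBd2, 1 rose and 1 fell in EBd3, and 1 rose in EBd4. That gene was Trrap, the scaffold for activators, which rose in all 4 stages (0.48, 0.23, 0.31 and 0.26). Taf6l, the SAGA relative of Taf6, rose in mES (0.51 ± 0.06) and EBd2 (0.71 ± 0.09). Of 16 Pol I and Pol III genes found, 5 rose and 1 fell in mES, 1 and 2 in EBd2, 1 rose in EBd3 and 3 fell in EBd4. Polr1a, the largest Pol I subunit, rose in mES (0.22 ± 0.03) and fell in EBd4 (-0.21 ± 0.05). Of 4 paralogues found beside the members, Tbpl1, a TBP relative, rose in mES (0.44 ± 0.07), EBd2 (0.40 ± 0.07) and EBd3 (0.23 ± 0.07), and Taf7l, a germ-cell relative of Taf7, fell in EBd2 (-1.56 ± 0.10) and EBd3 (-0.83 ± 0.20).

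In the authors' deposited table, whose up and down calls all have an adjusted p below 0.05 and a log2 fold change above 1 in size, 0 of the 61 genes were called in any stage. At an adjusted p below 0.05 alone the authors' values gave 18 up and 8 down in mES and 7 up and 7 down in EBd2. They gave 8 up and 5 down in EBd3, and 2 up and 4 down in EBd4. The authors' calls over all genes were not counted, so whether these counts are low or high cannot be told here.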

How the data were processed

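RNA-seq of total RNA from 24 libraries was used. Per the submitters' processing notes, reads were handled with STAR 2.5.3a, featureCounts 1.5.2 and DESeq2 on mm10; strand setting and annotation version are not given in the sources used here. The authors deposited 1 table per stage with each library's value per gene in the unit signal: read counts divided by 1 size factor per library. Per the file headers, the deposited tables also hold the authors' log2 fold change, its error, the test score and p-values. The mean column of every table equals the mean over all 24 libraries, so the deposited values share 1 normalisation and were compared across stages as they are.

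Whole reads were recovered from 100% of the values within a tolerance of 1e-06. Rows with no symbol (14339 of 35742) held 1.12% to 1.32% of reads. limma 3.58.1 (R 4.3.3) with Benjamini-Hochberg adjustment was run on log2(value + 1), which understates changes of low genes, leaving out genes whose mean was under 1, with no covariate. IAA was tested within each stage, stages over the 12 Dox libraries, and stage differences over all 24. A count test was kept as an alternative because the deposited values are normalised. edgeR 4.0.16 on recovered reads called 7932, 6680, 2301 and 2192 genes in mES, EBd2, EBd3 and EBd4, and limma 7821, 6638, 2245 and 2173. Other alternatives were pseudocounts of 0.5 and 5, no filter or a minimum mean of 10, TMM scaling, DESeq2 1.42.0, a replicate block, a joint fit of the 24 libraries, and leaving out each library. Scripts were tested on simulated data.

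The members and gene lists were chosen with earlier results of these data known. Named genes are the up to 4 members with the smallest adjusted p each way per complex and IAA comparison, up to 3 for the other comparisons, paralogue pairs, rows outside TFIID, and Polr2a, Med1, Med12, Cdk8, Tbp and Taf1. Other members are named where a count lists them. The second Taf9 row was moved out of TFIID after its identifier was looked up. Exon overlaps come from GENCODE M21, and promoters from RefSeq on GRCm38.p6.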

Additional observations from a re-analysis of the deposited data

Results flagged for a closer look

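The effect of IAA differed from that in mES cells, by the test of the difference (limma, adjusted p under 0.05), for the genes below. Each value is the EB effect minus the mES effect on the log2 scale.

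In EBd2 the difference was positive for Taf6 (0.25) and Polr2f (0.30). It was negative for Polr2a (-0.23), Polr2m (-0.27), Med1 (-0.29), Med13 (-0.30), Med20 (-0.36), Med25 (-0.24), Taf1 (-0.34), Taf5 (-0.31) and Taf15 (-0.18). That of Med25 was lost in 10 of the runs that leave out a library (adjusted p 0.0511 to 0.168), 3 of them of EBd3 or EBd4 libraries, and that of Taf15 in 8 (0.0524 to 0.155).

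In EBd3 it was positive for Med16 (0.31) and negative for Med12l (-1.19), Med1 (-0.26), Med20 (-0.36), Taf1 (-0.30) and Taf15 (-0.34). That of Med20 was lost without any of 9 libraries (0.0559 to 0.103).

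In EBd4 it was positive for Med6 (0.45) and Med30 (0.46). It was negative for Polr2a (-0.35), Polr2b (-0.24), Polr2d (-0.48), Polr2l (-0.34), Med1 (-0.38), Med9 (-0.35), Med13 (-0.24), Taf1 (-0.27), Taf2 (-0.18), Taf7 (-0.21), Taf12 (-0.40) and Taf1c (-0.28). That of Med13 was lost without mES IAA 1 (0.0531), that of Taf2 without any of 10 libraries (0.0507 to 0.132), and that of Taf1c without any of 17 (0.0504 to 0.195).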

How the results depend on the processing

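No change reversed under any alternative run. Of the calls with IAA, rows outside TFIID included, 26 of 38 in mES, 10 of 19 in EBd2, 4 of 14 in EBd3 and 3 of 7 in EBd4 held under every alternative, leaving out a library included. Counts that moved by over 1.5 times were these: Pol II in mES, 10, was 6 by DESeq2 and 5 in the joint fit; Pol II in EBd2, 3, was 5 by edgeR. By DESeq2, EBd2 Mediator fell from 7 to 3, EBd2 TFIID from 7 to 4, EBd3 Mediator from 7 to 4 and EBd4 Mediator from 5 to 3. EBd4 TFIID, 0, was 1 in the joint fit.

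Leaving out 1 library gave 7 to 10 called Pol II, 13 to 19 Mediator and 7 to 8 TFIID genes in mES. In EBd2 the ranges were 2 to 4, 3 to 7 and 4 to 7, in EBd3 1 to 2, 2 to 7 and 1 to 3, and in EBd4 0 to 0, 2 to 5 and 0 to 0. For Dox stages against mES they were 46 to 49, 39 to 45 and 36 to 40, and for the stage differences 7 to 11, 3 to 5 and 9 to 16.

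The replicate numbers showed no clear pairing of the samples: same-numbered deviations correlated at -0.218 to 0.107. Every sample matched its own number best in mES only (0.010 to 0.032). These deviations also hold counting noise, so a pairing is not excluded. With the number as a replicate block, 7931, 6679, 2402 and 1365 genes were called in the 4 stages, and EBd4 Mediator went from 5 to 3 called genes. The cause of these shifts was not tested. The 3 low rows, Med12l, Taf9 and Taf9b, had the fewest reads, and that of Taf9 does not give the level of the gene.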
